A study of Mus musculus with 28 samples.

Results

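The data described here compare wild-type neuronal progenitor (NP) cells with the wild-type embryonic stem (ES) cells from which they were differentiated, across all genes measured. These are 4 of the 28 arrays of the series, 2 from NP cells and 2 from ES cells, picked out by their genotype and stage labels. The comparison was chosen with earlier results of these data known. All were mouse cells of strain 129SvEv, and total RNA was hybridised to Affymetrix whole-transcript arrays. The series as a whole asks how loss of Top2β, a topoisomerase that cuts and rejoins both DNA strands, changes the passage from ES cell to neuron. The same step in Top2β knockout cells (2 NP and 2 ES arrays) is used here only as a comparison, and wild-type cells at the later stages that the labels call TN day 2 (2 arrays) and TN day 6 (3 arrays) are used to show what became of the levels reached in NP cells. The labels do not spell out TN. They attach a single treatment text (DMSO or 50 µM of the inhibitor ICRF-193 between TN days 2 and 5) to every sample, and that text names neither the ES nor the NP stage. They do not say whether the 2 arrays of a group came from separate cultures, nor how many cell lines or clones stand behind a genotype, so a p-value here rests on the scatter among arrays, which may be technical.

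ES cells are held in a self-renewing state by a small circuit of transcription factors around Oct4 (Pou5f1), Sox2 and Nanog, fed by LIF, FGF and Nodal signals. In the differentiation protocol that the labels cite, ES cells are grown as floating aggregates and exposed to retinoic acid, a vitamin A derivative that binds nuclear receptors and is known to give neural tissue a hindbrain and spinal cord character by turning on Hox genes. The progenitors obtained this way are known to resemble radial glia, the Pax6-positive dividing cells that line the neural tube and give rise to neurons.

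Expression is given as the deposited log2 intensity of a gene's probe set. A difference is the NP mean minus the ES mean of these log2 values, with its standard error from a model fitted with limma to all 28 arrays. A gene is said to have risen or fallen when limma's p-value, after Benjamini-Hochberg adjustment over the 19938 genes, was under 0.05. In NP cells 9222 genes passed, 46.3% of those tested. Of these, 4329 rose (21.7%) and 4893 fell (24.5%). At least 2-fold changes were called upward in 1205 genes (6.04%) and downward in 1481 (7.43%). With almost every other gene changed, a count within a gene group is read below against these shares, and the median difference of a group against the median of all genes, 0.048. The gene groups were chosen with earlier results of these data known. Their counts therefore describe these arrays and give no independent support for a cell type. The arrays of a pair were close to each other (Pearson r over genes 0.994 between the NP arrays and 0.997 between the ES arrays) and far from the other stage (0.922 to 0.929), and the array medians lay between 6.24 and 6.33. The 2 NP values lay entirely above or below the 2 ES values in 9189 of the 9222 genes called. The same held for 14294 of all 19938 genes (71.7%), so this separation adds little to a call. RNA was taken from whole cultures, so fewer cells of a type and less RNA per cell cannot be told apart in any of these values.

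The labelled cell types were first checked against their defining markers. Pou5f1 read 5.74 and 4.86 in NP cells, against 11.22 and 11.33 in ES cells (difference -5.97 ± 0.23, adjusted p = 2.12e-14). Pax6, the homeodomain factor that defines radial glia in this protocol, read 10.47 and 10.41 in NP cells, against 7.05 and 6.89 in ES cells (3.47 ± 0.29, adjusted p = 3.24e-09). Both genes separated the stages by more than 3 log2 units, in opposite directions, and neither pair overlapped. Not every textbook marker passed the test in the direction of the labels. Nes, which encodes the intermediate filament nestin, read 10.13 and 9.80 in NP cells, against 9.44 and 9.41 in ES cells (0.54 ± 0.32, adjusted p = 0.18), and Vim, another progenitor filament, read 12.42 and 12.50, against 12.20 and 12.18 (0.27 ± 0.23, adjusted p = 0.373). Neither passed the test. Stmn2, listed among neuronal markers, was high in ES cells, with 9.91 and 9.71 in NP cells, against 11.21 and 11.13 in ES cells (-1.36 ± 0.17).

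**Figure D1:**
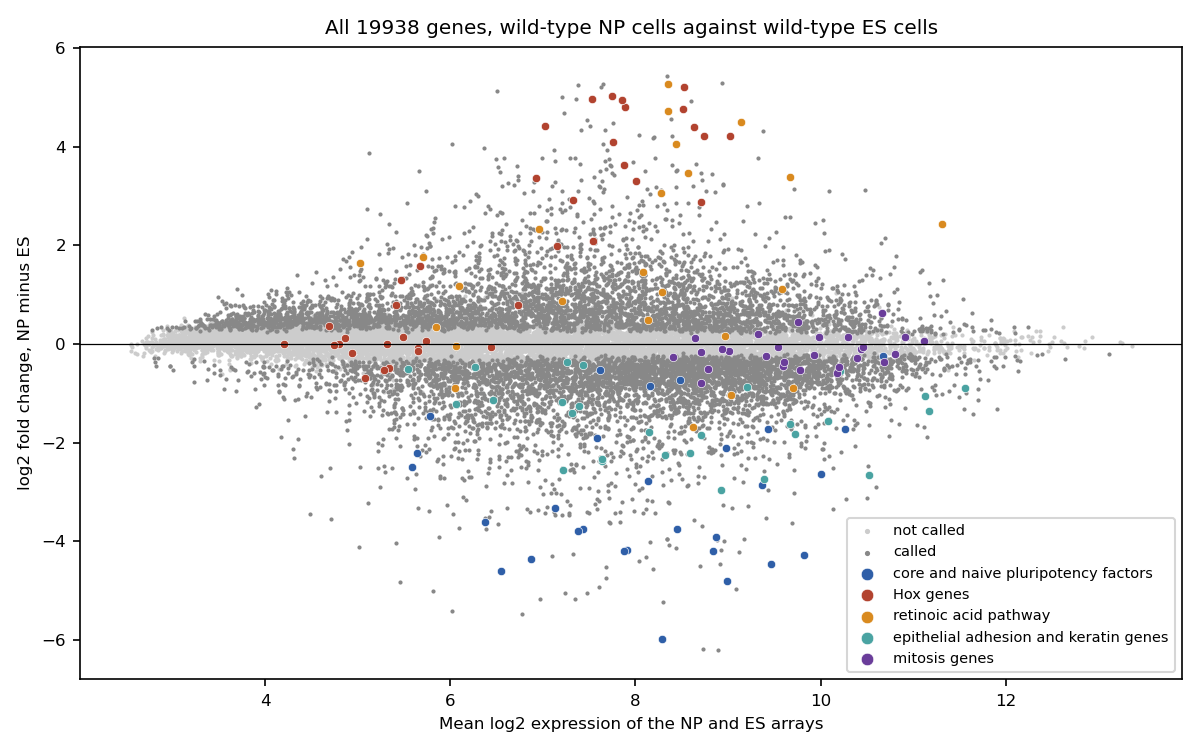
Difference between NP and ES wild-type cells (log2, vertical axis) against the mean log2 intensity of each of 19938 genes (horizontal axis), with 5 gene lists in colour. Pluripotency and epithelial genes lie below zero, most Hox and retinoic acid genes above it, and mitosis genes close to it.

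The pluripotency network was lower in NP cells throughout, except for Sox2. Of the 29 core and naive pluripotency factors measured, 28 fell and none rose, with a median difference of -3.33. Nanog, the homeodomain factor of the naive state, read 6.68 and 6.48 in NP cells, against 11.38 and 11.40 in ES cells (-4.81 ± 0.22, adjusted p = 3.03e-13). Utf1, a chromatin-associated factor confined to pluripotent and germ cells, read 7.23 and 7.24, against 11.74 and 11.64 in ES cells (-4.46 ± 0.15). Zfp42, the classical ES marker Rex1, read 4.14 and 4.36 in NP cells, against 9.27 and 8.42 in ES cells (-4.60 ± 0.38). In these 3 genes every NP array lay at least 4 log2 units below every ES array. Sox2, which partners Oct4 in ES cells and is also kept by neural progenitors, read 10.61 and 10.50 in NP cells, against 10.87 and 10.73 in ES cells (-0.24 ± 0.27, adjusted p = 0.485). Its relatives in the SoxB1 group were higher in NP cells: Sox3 read 8.74 and 8.48, against 7.35 and 7.34 in ES cells (1.26 ± 0.17), and Sox1, an early neural marker, read 8.75 and 8.65, against 7.29 and 7.54 (1.28 ± 0.15). The heterochronic RNA-binding proteins Lin28a (-2.11 ± 0.16) and Trim71 (-1.73 ± 0.17), which block or are targeted by let-7 miRNAs, fell by less than Pou5f1, Nanog and Utf1 and read 7.995 and 7.85 (Lin28a) and 8.65 and 8.48 (Trim71) in NP cells.

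The promoter of Nanog is shown because it holds the joined Oct4 and Sox2 motif through which the circuit acts on this gene. The window runs from 250 bases before to 50 after the annotated start (RefSeq, GRCm38.p6, chr6:122707239-122707538, plus strand), and the capitals mark the match to the motif, TTTGCAT followed after any 1 base by the Sox part ACAATG, at 75 to 62 bases before the start.

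Nanog: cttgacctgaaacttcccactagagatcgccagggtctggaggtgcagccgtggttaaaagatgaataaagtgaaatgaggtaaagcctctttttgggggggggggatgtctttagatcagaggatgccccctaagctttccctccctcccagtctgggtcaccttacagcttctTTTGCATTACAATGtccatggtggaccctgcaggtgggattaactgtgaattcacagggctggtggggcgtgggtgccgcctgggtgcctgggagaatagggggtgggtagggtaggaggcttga

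Of 32851 promoter windows of this length searched on both strands, 2 held that motif (0.00609%), both of them at annotated starts of Nanog. A match is a description of these letters and not a measurement of binding.

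Most genes of the formative state, which follows the naive one, were lower as well. Of 12 formative and primed pluripotency genes, 9 fell and 2 rose (median -2.001). Otx2, which directs the transition to formative pluripotency and later patterns the forebrain, read 5.69 and 5.29 in NP cells, against 8.57 and 8.48 in ES cells (-3.03 ± 0.21). Dnmt3b, a de novo DNA methyltransferase of that state, read 6.83 and 6.87, against 10.45 and 10.38 in ES cells (-3.57 ± 0.11, adjusted p = 8.56e-16). The 2 members that rose were Sox3 and Sall2 (1.11 ± 0.20), both also expressed in neural tissue.

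Among 21 genes of the Nodal, activin and FGF4 pathways, 14 fell and 5 rose (median -1.58). The co-receptor Tdgf1 and the Nodal targets Lefty1 and Lefty2 were among the 15 largest falls of all genes. Tdgf1 (Cripto), the Nodal co-receptor, read 5.68 and 5.90 in NP cells, against 12.03 and 11.97 in ES cells (-6.21 ± 0.30, adjusted p = 5.66e-13). Lefty2, a Nodal target that inhibits Nodal, read 4.07 and 4.01, against 9.65 and 9.38 in ES cells (-5.47 ± 0.20). Nodal itself read 5.77 and 6.04 in NP cells, against 9.60 and 9.49 in ES cells (-3.64 ± 0.22). Ligand, co-receptor and inhibitor were thus all low in both NP arrays. Fgf4, the main FGF ligand of ES cells, read 5.88 and 6.03 in NP cells, against 10.21 and 10.36 in ES cells (-4.33 ± 0.42), and the FGF feedback genes Spry4 (-4.02 ± 0.20) and Etv5 (-3.98 ± 0.19) fell with it. Receptors and transducers moved in both directions. Fgfr3 read 9.61 and 9.42 in NP cells, against 6.61 and 6.62 in ES cells (2.90 ± 0.22), and Fgfr2 (1.16 ± 0.20), Smad3 (1.60 ± 0.19), Acvr2a (0.9996 ± 0.11) and Acvr2b (0.56 ± 0.11) rose as well. The receptor Fgfr1, named here after its value was seen (-0.53 ± 0.11), and the Nodal transducer Foxh1 (-3.48 ± 0.20) fell, and Smad2 (0.17 ± 0.11, adjusted p = 0.242) and the receptor Acvr1b (-0.02 ± 0.12, adjusted p = 0.913) did not pass. In the LIF pathway 7 of 10 genes fell and 1 rose. The receptor subunits Lifr (-1.47 ± 0.18) and Il6st (-1.04 ± 0.14) and the target Myc (-1.98 ± 0.18) were among those that fell.

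Genes outside these circuits belong to the largest falls too. Trh, the precursor of thyrotropin-releasing hormone, read 5.53 and 5.75 in NP cells, against 11.89 and 11.75 in ES cells (-6.18 ± 0.14, adjusted p = 4.26e-18). Ptgs2, the prostaglandin synthase COX-2, read 5.64 and 5.73, against 10.91 in both ES arrays (-5.23 ± 0.31). Slc7a3, a transporter of cationic amino acids, read 6.59 and 6.60 in NP cells, against 11.66 and 11.48 in ES cells (-4.97 ± 0.36). In all 3 genes both NP arrays lay far below both ES arrays. Of 17 transporters and surface markers of ES cells, 15 fell and 1, Cd24a, rose (1.24 ± 0.23). Alkaline phosphatase Alpl (-2.13 ± 0.22), Cd9 (-2.54 ± 0.29), Pecam1 (-2.29 ± 0.21) and Abcg2 (-2.34 ± 0.21) were among the 15, while the receptor Kit did not pass (-0.36 ± 0.20, adjusted p = 0.156). Zfp979 (-5.42 ± 0.24), Zfp640 (-5.17 ± 0.34) and Zfp980 (-5.05 ± 0.46) were also among the 15 largest falls, but they belong to a zinc finger family with near-identical copies, so their probes may read more than 1 gene.

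Precursors of the miRNAs typical of pluripotent cells were lower in NP cells by up to 5.01 log2 units. The array holds probe sets for miRNA precursor genes, which read the precursor or its host transcript and not the mature miRNA. Of 70 precursors listed, 53 were measured, and 12 rose and 12 fell. Mature sequences from RefSeq (GRCm38.p6), found for 51 of the 53, are shown for the members that changed most, since miRNAs recognise targets through the seed, bases 2 to 8, here in capitals. The cluster on chromosome 3 holds a group that shares the seed AAGUGCU or its shifted form.

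miR-302b-3p: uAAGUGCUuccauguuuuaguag
miR-302d-3p: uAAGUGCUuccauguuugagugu
miR-302c-3p: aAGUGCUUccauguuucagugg

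The mature sequences lie at chr3:127545275-127545297 (miR-302b-3p), chr3:127545406-127545427 (miR-302c-3p) and chr3:127545665-127545687 (miR-302d-3p), all on the plus strand. Members of this family are known to speed the G1 to S transition in ES cells. Another seed was shared by a member of the same cluster, at chr3:127545779-127545800 on the plus strand, and by a gene on the X chromosome, at chrX:52741697-52741718 on the minus strand.

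miR-367-3p: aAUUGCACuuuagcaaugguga
miR-363-3p: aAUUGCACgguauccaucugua

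Mir302c read 3.33 and 3.28 in NP cells, against 8.40 and 8.24 in ES cells (-5.01 ± 0.13, adjusted p = 4.93e-17). Mir302a read 2.98 and 3.10, against 8.07 and 7.68 in ES cells (-4.83 ± 0.15), and Mir302b read 3.06 and 2.86, against 7.45 and 6.68 (-4.11 ± 0.19). Mir302d (-3.39 ± 0.15) and Mir367 (-3.44 ± 0.14) fell with them, so all 5 measured precursors of the chromosome 3 cluster were lower in both NP arrays. They lie inside the gene Larp7, chosen here after its values were seen, which read 8.97 and 8.82 in NP cells, against 9.31 and 9.24 in ES cells (-0.38). Whether Larp7 is their host transcript was not tested, so its values are not read as those of a host. Mir363 read 3.58 and 3.22 in NP cells, against 7.57 and 7.29 in ES cells (-4.03 ± 0.30). Smaller falls were called in precursors of the related miR-17 family clusters, Mir19a (-1.34 ± 0.28), Mir18 (-1.16 ± 0.23) and Mir106a (-0.91 ± 0.19), whereas Mir17 itself did not pass (-0.46 ± 0.21, adjusted p = 0.0796).

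The precursors that rose included a pair that lie within Hox clusters and share a seed, at chr2:74726074-74726096 (plus strand) and chr11:96317186-96317208 (plus strand), and a neural miRNA at chr2:29845689-29845709 (minus strand).

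miR-10b-5p: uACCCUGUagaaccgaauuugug
miR-10a-5p: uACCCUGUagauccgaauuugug
miR-219a-5p: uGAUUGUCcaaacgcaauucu

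Mir219a-2 read 9.96 and 9.72 in NP cells, against 5.37 and 5.63 in ES cells (4.34 ± 0.24, adjusted p = 3.74e-12). Mir10b read 7.28 and 6.84 in NP cells, against 3.27 and 3.09 in ES cells (3.88 ± 0.22). Mir10a rose less, with 4.75 and 4.32 in NP cells, against 3.71 and 3.35 in ES cells (1.01 ± 0.28, adjusted p = 0.00501), and its call was lost when an array was left out. Of the precursors of the brain miRNA miR-124, Mir124a-2 rose (0.61 ± 0.16, adjusted p = 0.00337, not called without ES wild-type replicate 1) and Mir124a-3 did not pass (-0.19 ± 0.19, adjusted p = 0.419). Of 6 listed let-7 precursors 5 did not pass, Mirlet7a-1 among them (-0.05 ± 0.12, adjusted p = 0.755), and Mirlet7c-1 rose (0.60 ± 0.20), a call that was lost under some alternative settings. Mir200c, of an epithelial family, did not pass (0.19 ± 0.19, adjusted p = 0.432), while Mir200b fell (-0.68 ± 0.25), a call also lost under some settings.

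Germ line genes, many of which are silenced by DNA methylation when somatic lineages form, were lower in NP cells as a group: 17 of 26 fell and 2 rose (median -0.80). Mael, a piRNA pathway protein that protects germ cells from transposons, read 4.89 and 4.60 in NP cells, against 8.17 and 8.08 in ES cells (-3.38 ± 0.49, adjusted p = 6.8e-06). Sycp3, a structural protein of meiotic chromosomes, read 3.42 and 3.45, against 5.998 and 5.91 in ES cells (-2.52 ± 0.17). Ddx4, the germ cell helicase Vasa, read 4.29 and 4.20 in NP cells, against 6.55 and 6.02 in ES cells (-2.04 ± 0.22). The germ cell RNA-binding protein Dazl did not pass (-0.28 ± 0.14, adjusted p = 0.0966). The 2 genes that rose were Tdrkh (2.31 ± 0.20) and Stra8, whose name records its induction by retinoic acid, at 6.14 and 5.55 in NP cells, against 4.12 and 4.27 in ES cells (1.65 ± 0.17). The Mael promoter is printed because it carries both letter patterns through which the repressor complex PRC1.6 is known to reach germ line promoters, the E-box CACGTG and the E2F6-type site TCCCGC, each searched on both strands and shown in capitals (RefSeq, GRCm38.p6, chr1:166238695-166238994, minus strand).

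Mael: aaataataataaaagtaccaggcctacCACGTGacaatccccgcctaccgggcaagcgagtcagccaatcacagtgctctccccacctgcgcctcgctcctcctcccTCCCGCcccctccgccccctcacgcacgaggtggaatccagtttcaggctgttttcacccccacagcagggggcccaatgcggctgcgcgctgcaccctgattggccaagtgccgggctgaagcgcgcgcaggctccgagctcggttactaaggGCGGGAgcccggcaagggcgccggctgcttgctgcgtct

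Counting the annotated start as 0, the E-box lies at -223 to -218 and the E2F6-type matches at -143 to -138 and 11 to 16. Of the 26 germ line genes measured, 23 had a promoter entry. An E-box was found in 11 of the 23 (47.8%) and the E2F6-type site in 10 (43.5%). Of all 32851 windows 7.15% held the E-box and 19.975% the E2F6-type site. A gene can have several windows, and of the 15614 measured genes with an entry 9.50% held the E-box and 30.5% the E2F6-type site in at least 1 of them. Of the genes that fell and had an entry, the shares were 13.9% and 38.2%. Fewer than 80% of the measured genes had an entry, so nothing is read from these shares. The E-box matches include those of Ddx4, Sycp3 and Mael.

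Enzymes of DNA methylation moved in both directions. Dnmt3l, the catalytically inactive partner of the de novo methyltransferases, read 5.19 and 5.11 in NP cells, against 10.07 and 10.06 in ES cells (-4.92 ± 0.46, adjusted p = 1.5e-08). Tet1, which oxidises methylcytosine, read 10.34 and 10.10, against 12.14 and 12.05 in ES cells (-1.88 ± 0.23). Its relative Tet3 moved the opposite way, with 9.36 and 9.19 in NP cells, against 7.79 and 7.40 in ES cells (1.68 ± 0.19). The maintenance methyltransferase Dnmt1 did not pass (0.13 ± 0.09, adjusted p = 0.268). Of the 13 genes of this list 7 fell and 2 rose, Tet3 and Dnmt3a (0.27 ± 0.10), the second of which lost its call under several alternative settings.

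Subunits of chromatin complexes moved in both directions. Of 30 Polycomb and Trithorax genes 10 rose and 12 fell (median -0.18). Among the readers of H3K27 methylation in Polycomb complex PRC1, Cbx7, the ES form, read 7.48 and 7.20 in NP cells, against 9.996 and 10.04 in ES cells (-2.67 ± 0.24), while Cbx2 (0.99 ± 0.14) and Cbx8 (0.93 ± 0.17), known to replace it on differentiation, rose. Phc1 fell (-1.64 ± 0.18) and Phc2 rose (1.20 ± 0.17). In PRC2, the methyltransferase Ezh2 rose (0.52 ± 0.09), whereas Eed (-1.32 ± 0.18) and the accessory subunits Epop (-1.49 ± 0.19), Mtf2 (-0.99 ± 0.18) and Phf19 (-1.24 ± 0.14) fell. Both complexes thus held members that rose and members that fell. Of 30 BAF and NuRD remodelling genes, 16 rose and 5 fell (median 0.25). The ATPase Smarca2, known to be low in the ES form of BAF, read 8.73 and 8.60 in NP cells, against 6.13 and 6.02 in ES cells (2.59 ± 0.40). Smarcc2 (0.98 ± 0.12), a subunit that the ES form of BAF lacks, rose while Smarcc1 did not pass (0.10 ± 0.08, adjusted p = 0.336). The remodellers Chd7 (1.17 ± 0.12), mutated in CHARGE syndrome, and Chd3 (1.30 ± 0.20) rose, and Hdac1 fell (-0.65 ± 0.09). Of 8 telomere genes 5 fell, among them Terf1 (-1.54 ± 0.18), Rif1 (-1.22 ± 0.20) and the telomerase reverse transcriptase Tert (-0.79 ± 0.17).

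Epithelial genes, which ES cells express, were lower in NP cells. Of 27 epithelial adhesion and keratin genes, 25 fell and none rose (median -1.40). Cdh1, E-cadherin, read 9.35 and 9.04 in NP cells, against 11.89 and 11.83 in ES cells (-2.67 ± 0.34, adjusted p = 1.49e-06). Perp, a desmosomal protein, read 7.58 and 7.32, against 10.52 and 10.30 in ES cells (-2.96 ± 0.25). The membrane protease St14 (-2.75 ± 0.20), the epithelial transcription factor Grhl2 (-2.56 ± 0.32), Cldn7 (-2.37 ± 0.19) and Epcam (-2.21 ± 0.25) fell in both NP arrays too. The 2 members that did not pass were the junction protein F11r (-0.54 ± 0.37, adjusted p = 0.239) and Krt7 (-0.37 ± 0.16, adjusted p = 0.0662). The splicing regulators of epithelia, Esrp1 (-2.25 ± 0.21) and Esrp2 (-1.79 ± 0.13), fell alongside. In the list of neural tube cadherins and genes of the epithelial to mesenchymal switch, 14 of 23 rose and 2 fell (median 0.94). Zeb1, a repressor of Cdh1, read 9.84 and 9.75 in NP cells, against 7.14 and 7.21 in ES cells (2.62 ± 0.31), and Zeb2 rose by 1.78 ± 0.28. Cdh8, a cadherin of the nervous system, read 9.05 and 8.70 in NP cells, against 4.99 and 5.21 in ES cells (3.77 ± 0.21). The mesenchymal inducer Snai1 did not pass (-0.01 ± 0.23, adjusted p = 0.983), and fibronectin, Fn1, fell (-1.41 ± 0.30). Of 30 collagen, laminin and matrix genes 11 fell and 6 rose. Genes of the basement membrane moved both ways. Those that fell included Nid2 (-2.07 ± 0.33), Lama5 (-1.98 ± 0.22), Nid1 (-1.95 ± 0.41), Hspg2 (-1.44 ± 0.26) and Lamc1 (-1.39 ± 0.32). Lama1 rose (0.73 ± 0.29), a call lost under several alternative settings, and Lamb1 did not pass (-0.98 ± 0.41, adjusted p = 0.0561). The neural matrix genes Ncan (1.21 ± 0.24), Tnr (0.74 ± 0.15) and Spock1 (1.80 ± 0.13) rose.

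**Figure D2:**
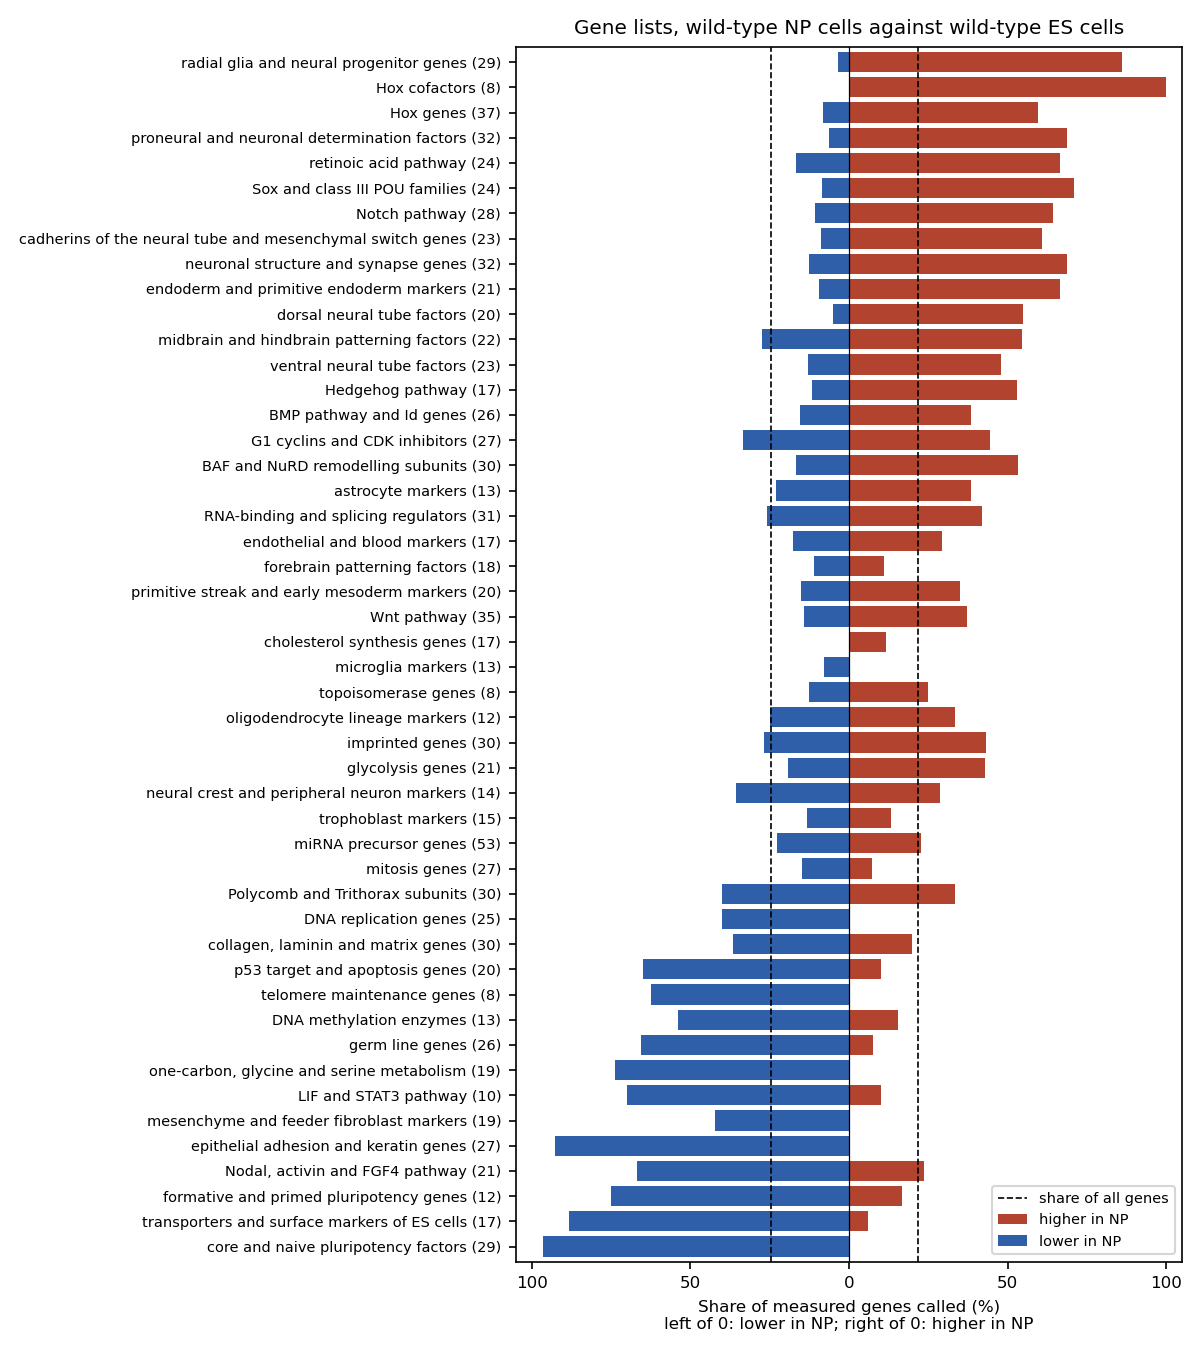
Share of the measured genes of each list (8 or more measured) that rose or fell in NP against ES wild-type cells, ordered by median difference, with dashed lines at the shares of all genes. Hox cofactors (8 of 8 higher) and radial glia genes (25 of 29) stand at the rising end, and pluripotency (28 of 29 lower) and epithelial genes (25 of 27) at the falling end.

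Most genes of radial glia and neural progenitors were higher in NP cells. Of 29 measured, 25 rose and 1 fell (median 2.39). Dbx1, a homeodomain factor of the intermediate neural tube that gives rise to V0 interneurons, read 11.08 and 11.03 in NP cells, against 5.60 and 5.64 in ES cells (5.44 ± 0.19, adjusted p = 4.98e-15). Fabp7, the brain lipid-binding protein of radial glia, read 11.11 and 11.0001, against 6.08 and 6.20 in ES cells (4.92 ± 0.52). Ednrb, the endothelin B receptor, read 10.32 and 10.24 in NP cells, against 4.73 and 5.28 in ES cells (5.27 ± 0.37). These 3 genes were each about 5 log2 units higher in both NP arrays. Sox9, a factor of neural stem cells and glia, read 10.59 and 10.36 in NP cells, against 6.77 and 6.89 in ES cells (3.65 ± 0.43), and Hes5, the Notch effector that keeps progenitors undifferentiated, read 9.56 and 9.63, against 7.19 and 7.22 in ES cells (2.39 ± 0.25). The glutamate transporter Slc1a3 rose by 1.09 ± 0.23. The member that fell was the matrix protein tenascin C, Tnc, at 6.44 and 6.22 in NP cells, against 10.41 and 10.39 in ES cells (-4.08 ± 0.48). Among Sox and class III POU factors, of which 17 of 24 rose, Pou3f4 read 10.76 and 10.57 in NP cells, against 6.32 and 5.89 in ES cells (4.56 ± 0.24). Pou3f2 (2.37 ± 0.18), Pou3f3 (2.48 ± 0.18), Sox11 (2.45 ± 0.18) and Sox4 (1.48 ± 0.14) also rose, while Pou3f1, which ES-derived epiblast cells express, fell (-1.45 ± 0.17), as did Sox15 (-1.84 ± 0.18).

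Most factors that turn progenitors into neurons were already higher in NP cells. Of 32 proneural and neuronal determination factors, 22 rose and 2 fell (median 1.35). Neurog1, a basic helix-loop-helix factor that commits progenitors to the neuronal fate, read 9.64 and 9.41 in NP cells, against 5.69 and 5.94 in ES cells (3.71 ± 0.23). Nhlh1, which follows the neurogenins in newborn neurons, read 9.12 and 9.02, against 4.11 and 3.77 in ES cells (5.13 ± 0.27, adjusted p = 1.77e-12). Neurod4 (4.06 ± 0.17), Ebf3 (3.21 ± 0.26), Myt1 (2.79 ± 0.14) and Neurog2 (2.27 ± 0.14) belonged to the same upward group. Neurod2, a factor of maturing cortical neurons, did not pass (0.10 ± 0.20, adjusted p = 0.713). Rest, the repressor that keeps neuronal genes off in other cells, read 8.80 and 8.47 in NP cells, against 10.40 and 10.37 in ES cells (-1.75 ± 0.16, adjusted p = 8.69e-09).

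Neuronal structure and synapse genes followed in 22 of 32 cases, with 4 falling (median 0.91). Dcx, doublecortin, a microtubule protein of migrating neurons, read 9.81 and 9.69 in NP cells, against 5.49 and 4.92 in ES cells (4.55 ± 0.13, adjusted p = 1.15e-16). Snap25, of the synaptic fusion machinery, read 8.67 and 8.50, against 6.00 and 5.76 in ES cells (2.71 ± 0.11). Map2, of dendrites, read 10.12 and 10.02 in NP cells, against 7.86 and 7.84 in ES cells (2.22 ± 0.13). Their means were higher again later, 12.28 for Dcx at TN day 2, and 10.36 for Snap25 and 11.91 for Map2 at TN day 6. Other neuronal genes did not pass between ES and NP cells. Mapt (tau) differed by -0.11 ± 0.21 (adjusted p = 0.685) and Ina by 0.29 ± 0.18 (adjusted p = 0.19), with means at TN day 6 of 10.43 and 12.34. Nefh (-1.75 ± 0.24), Syn1 (-0.78 ± 0.14) and Stmn2 fell between ES and NP cells, and Stmn2 then averaged 12.27 at TN day 2.

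Of 31 RNA-binding and splicing regulators, 13 rose and 8 fell (median 0.17), and several known from neurons were among those that rose. Srrm4, which drives the inclusion of neuronal microexons, read 8.73 and 8.78 in NP cells, against 5.70 and 5.60 in ES cells (3.11 ± 0.12, adjusted p = 1.03e-14). Elavl4 (HuD), which stabilises neuronal mRNAs, read 8.45 and 8.28, against 4.76 and 4.46 in ES cells (3.75 ± 0.14). Celf3 (3.51 ± 0.13), Rbfox3 (1.96 ± 0.11) and Nova1 (1.87 ± 0.12) rose with them, while Celf5, of the same family as Celf3, fell (-0.49 ± 0.13), a call lost in the fit to the 8 ES and NP arrays. Ptbp2, the neural polypyrimidine tract protein, read 11.28 and 11.31 in NP cells, against 9.77 and 9.75 in ES cells (1.53 ± 0.11). Its paralogue Ptbp1, which represses Ptbp2 in other cells, read 11.47 and 11.44 in NP cells, against 11.65 and 11.63 in ES cells (-0.18 ± 0.14, adjusted p = 0.312) and averaged 9.70 at TN day 2.

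Most genes of the retinoic acid pathway were higher in NP cells. Of 24 measured, 16 rose and 4 fell (median 1.32). Rarb, the retinoic acid receptor that is itself a target of the hormone, read 11.01 and 10.95 in NP cells, against 5.76 and 5.67 in ES cells (5.27 ± 0.31, adjusted p = 1.24e-11). Cyp26b1, an enzyme that breaks retinoic acid down, read 10.75 and 10.66, against 5.87 and 6.11 in ES cells (4.72 ± 0.17). Cyp26a1, of the same family, read 10.34 and 10.25 in NP cells, against 6.92 and 6.75 in ES cells (3.46 ± 0.62, adjusted p = 8.64e-05). This receptor and both enzymes were high together in both NP arrays, whereas the third enzyme, Cyp26c1, did not pass (0.34 ± 0.15, adjusted p = 0.0616). The binding protein Crabp2 read 11.36 and 11.41 in NP cells, against 6.96 and 6.83 in ES cells (4.49 ± 0.24). Dhrs3, which turns retinaldehyde back into retinol, rose by 3.39 ± 0.19, the retinol transporter Stra6 by 3.06 ± 0.17 and Lrat, which esterifies retinol, by 1.77 ± 0.14. Of the receptors, Rara (1.12 ± 0.11) and Rxra (1.47 ± 0.21) rose, and Rarg, the main form of ES cells, read 7.82 and 7.73 in NP cells, against 9.42 and 9.52 in ES cells (-1.69 ± 0.20). Enzymes that make retinoic acid gave mixed values: Rdh10 fell (-1.03 ± 0.22), Aldh1a3 (-0.04 ± 0.16, adjusted p = 0.873) and Aldh1a2 (0.88 ± 0.36, adjusted p = 0.0536) did not pass, and only Aldh1a1 of these 4 rose (1.18 ± 0.30). Nr6a1, the germ cell nuclear factor that retinoic acid is known to induce for a short time, fell (-0.90 ± 0.16).

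The promoters of Rarb and Cyp26a1 hold textbook retinoic acid response elements. They were the 2 of the 20 promoters available for this list (10%) with a direct repeat of 2 GNTCA units, 6 bases apart, the pattern of a receptor element with 5 bases between its hexamers, searched on both strands. Among all 32851 windows, 283 held it (0.861%), and so did 0.743% of the 15614 genes with an entry. The match stands in capitals, at -52 to -37 from the annotated start of Rarb (RefSeq, GRCm38.p6, chr14:16575427-16575726, minus strand) and at -32 to -17 from that of Cyp26a1 (chr19:37697558-37697857, plus strand), where it reads on the other strand.

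Rarb: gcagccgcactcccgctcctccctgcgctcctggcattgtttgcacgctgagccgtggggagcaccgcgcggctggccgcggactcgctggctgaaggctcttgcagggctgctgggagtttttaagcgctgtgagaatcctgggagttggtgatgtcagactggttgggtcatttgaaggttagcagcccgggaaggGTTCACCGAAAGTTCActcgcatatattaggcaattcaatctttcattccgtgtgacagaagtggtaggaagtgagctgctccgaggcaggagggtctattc
Cyp26a1: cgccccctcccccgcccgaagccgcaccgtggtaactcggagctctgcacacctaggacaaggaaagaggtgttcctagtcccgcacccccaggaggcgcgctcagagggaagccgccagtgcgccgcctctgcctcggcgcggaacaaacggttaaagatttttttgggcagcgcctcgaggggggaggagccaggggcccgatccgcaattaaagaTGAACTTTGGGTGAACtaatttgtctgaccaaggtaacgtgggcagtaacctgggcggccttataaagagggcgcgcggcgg

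The levels of these target genes were not kept alike. Cyp26a1 averaged 5.22 at TN day 2, below its ES values, and Cyp26b1 averaged 6.27, while Rarb averaged 10.23 at TN day 2 and 8.78 at TN day 6. No promoter of a Hox gene (0 of 21 available) held the 5-base repeat in this window, which says nothing about elements elsewhere in the clusters.

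Hox genes, which set position along the body axis and are ordered in 4 clusters from paralogue 1 to 13, rose by paralogue. All 7 genes of paralogues 1 to 3 rose (median 4.21), and so did all 10 of paralogues 4 to 6 (median 4.45). Of the 8 genes of paralogues 7 to 9, 4 rose, and of the 12 of paralogues 10 to 13, 1 rose and 3 fell. Hoxc5 read 11.14 in both NP arrays, against 5.95 and 5.89 in ES cells (5.22 ± 0.29, adjusted p = 6.17e-12). Hoxa5 read 10.29 and 10.24, against 5.26 and 5.21 in ES cells (5.03 ± 0.22). Hoxb5 read 10.37 and 10.21 in NP cells, against 5.47 and 5.51 in ES cells (4.80 ± 0.20). The 15 genes of paralogues 2 to 6 all rose, by 2.87 to 5.22, in all 4 clusters. Hoxb1 (2.09 ± 0.16) and Hoxd1 (1.29 ± 0.15), the most anterior genes measured, rose less. The posterior edge differed between clusters. In the B cluster Hoxb9 read 11.16 and 11.11 in NP cells, against 6.86 and 6.97 in ES cells (4.22 ± 0.32), whereas Hoxa9 read 5.26 and 5.38 in NP cells, against 5.25 and 5.38 in ES cells (0.01 ± 0.19, adjusted p = 0.979), and Hoxc9 (0.05 ± 0.18, adjusted p = 0.831) and Hoxd9 (-0.07 ± 0.18, adjusted p = 0.764) did not pass. Hoxb13, the single posterior gene that rose, remained low in both stages, at 5.71 and 5.89 in NP cells, against 5.05 and 4.98 in ES cells (0.78 ± 0.14). Hoxc13 fell (-0.69 ± 0.13), and the falls called in Hoxc12 (-0.49 ± 0.18) and Hoxd13 (-0.53 ± 0.18) were lost under several alternative settings. The antisense transcript Hoxd3os1 read 9.82 and 9.85 in NP cells, against 4.84 and 4.90 in ES cells (4.97 ± 0.15), and at TN day 2 it averaged 5.64 while Hoxd3 still averaged 10.53. Cofactors that bind DNA with Hox proteins rose in 8 of 8 cases (median 1.64): Meis2 read 11.53 and 11.54 in NP cells, against 7.27 and 7.17 in ES cells (4.31 ± 0.39), and Meis1 rose by 3.77 ± 0.26 and Pbx3 by 1.83 ± 0.23.

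**Figure D3:**
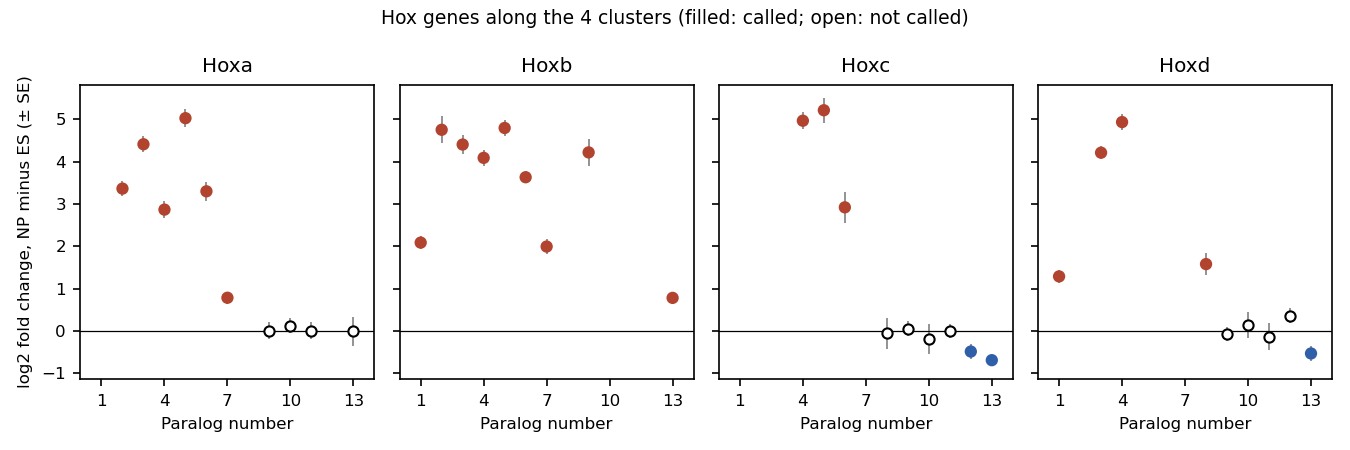
Difference between NP and ES wild-type cells (log2 ± standard error, vertical axis) for each Hox gene by paralogue number (horizontal axis), with a panel per cluster and filled points for called genes. Paralogues 2 to 6 lie between 2.87 and 5.22 in every cluster, and paralogues 10 to 13 lie near zero.

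Few markers of the forebrain changed, those of the midbrain and hindbrain moved both ways, and several of the dorsal neural tube rose. Of 18 forebrain patterning factors, 2 rose and 2 fell, and among the rest Emx1 (0.12 ± 0.14, adjusted p = 0.524) and Dlx5 (0.02 ± 0.18, adjusted p = 0.936) did not pass. Lhx2 rose, at 7.89 and 7.51 in NP cells, against 5.99 and 6.17 in ES cells (1.63 ± 0.21). Of 22 midbrain and hindbrain factors 12 rose and 6 fell. The 6 were Mab21l2, Fgf8, En2, Gbx2, Cdx4 and Egr2, and the calls of Gbx2, Cdx4 and Egr2 were lost under some alternative settings. Nr2f1, an orphan receptor known as a retinoic acid responsive gene, read 10.27 and 10.19 in NP cells, against 5.02 and 5.03 in ES cells (5.21 ± 0.18). Wnt1, expressed along the dorsal midline and at the midbrain border, read 9.59 and 9.55, against 4.80 and 4.98 in ES cells (4.68 ± 0.27) and averaged 5.14 at TN day 2. Irx3 (3.55 ± 0.21) and Pax2 (2.64 ± 0.12) rose, while En2, which marks the midbrain-hindbrain border, fell (-0.75 ± 0.15) and En1 did not pass (-0.27 ± 0.28, adjusted p = 0.462). Cdx2, which turns on trunk Hox genes in the embryo, did not pass either (-0.54 ± 0.25, adjusted p = 0.0774). Dorsal factors included Msx3 at 10.50 and 10.51 in NP cells, against 6.30 and 6.28 in ES cells (4.21 ± 0.26), Pax3 (3.77 ± 0.25), Pax7 (3.31 ± 0.18) and Olig3 (3.98 ± 0.22), among 11 of 20 that rose and 1 that fell. Ventral factors rose in 11 of 23 cases and fell in 3, with Lhx1 at 3.75 ± 0.59, Foxa1 at 2.86 ± 0.37, Olig2 at 1.25 ± 0.21 and the ventral signal Shh at 0.85 ± 0.16. Lhx1 is also counted among the mesoderm markers below, and Foxa1 among the endoderm markers.

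Signalling pathways of the neural tube changed in some of their members. Of 28 Notch pathway genes, 18 rose and 3 fell (median 0.997). The ligand Dll1 read 9.28 and 9.10 in NP cells, against 7.04 and 7.01 in ES cells (2.17 ± 0.24), and the feedback inhibitor Nrarp read 9.08 and 8.89, against 6.10 and 6.13 in ES cells (2.87 ± 0.35). The target Hey1 rose by 2.71 ± 0.28, whereas the receptors Notch2 (-0.40 ± 0.21, adjusted p = 0.125) and Notch3 (-0.18 ± 0.15, adjusted p = 0.356) did not pass. In the Hedgehog pathway 9 of 17 rose and 2 fell. The co-receptors Boc, at 10.59 and 10.51 in NP cells, against 7.13 and 7.09 in ES cells (3.44 ± 0.26), and Gas1 (3.24 ± 0.20) rose. Ptch1, a target, did not pass (-0.12 ± 0.17, adjusted p = 0.59). The 2 that fell, each at least 2-fold, were Lrp2 (-2.46 ± 0.35) and Gli1. The call of Gli1 was lost in the fit to the 8 ES and NP arrays. Of 35 Wnt genes 13 rose and 5 fell. Lgr5, an R-spondin receptor, read 9.70 and 9.60 in NP cells, against 5.60 and 5.85 in ES cells (3.92 ± 0.38), Fzd3 rose by 3.08 ± 0.14 and the inhibitor Sfrp1 by 2.24 ± 0.32, while the common Wnt target Axin2 did not pass (0.15 ± 0.17, adjusted p = 0.514). Wnt8a (-2.49 ± 0.17) and Wnt3 (-1.51 ± 0.24), ligands of the early embryo, fell. Among 26 BMP pathway and Id genes 10 rose and 4 fell. Bmp4 read 9.05 and 8.88 in NP cells, against 11.10 in both ES arrays (-2.13 ± 0.24), and Bmp7 moved the opposite way (2.48 ± 0.21), with Id2 (1.12 ± 0.14) and Id3 (1.21 ± 0.20) rising and Id1 not passing (-0.16 ± 0.18, adjusted p = 0.525). Axon guidance receptors were among the 15 largest rises of all genes: Unc5a, a netrin receptor, read 11.62 and 11.55 in NP cells, against 6.21 and 6.37 in ES cells (5.29 ± 0.11, adjusted p = 3.58e-18), and the ephrin receptor Epha3 read 9.80 and 9.61, against 4.96 and 4.43 (5.01 ± 0.34).

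Few genes of mitosis changed. Of 27, 2 rose and 4 fell, against 46.3% of all genes called, and Ccna2 read 10.96 and 11.004 in NP cells, against 10.84 and 10.83 in ES cells (0.15 ± 0.20, adjusted p = 0.576). Of 25 DNA replication genes 10 fell and none rose (median -0.30). Orc1, of the origin recognition complex, read 7.11 and 6.52 in NP cells, against 9.06 and 9.08 in ES cells (-2.25 ± 0.18), and Mcm10 fell by 1.05 on the log2 scale, whereas Pcna did not pass (-0.14 ± 0.12, adjusted p = 0.35). The G1 regulators were rearranged, with 12 of 27 higher and 9 lower. Ccne1, the cyclin E that is high throughout the ES cell cycle, read 9.34 in both NP arrays, against 11.47 and 11.35 in ES cells (-2.07 ± 0.18, adjusted p = 6.65e-09). Ccnd2 read 11.77 and 11.75 in NP cells, against 9.61 and 9.64 in ES cells (2.14 ± 0.32), and Ccnd1 fell (-0.82 ± 0.21). Inhibitors of the G1 phase moved both ways: Cdkn1c (1.92 ± 0.18), Cdkn1b (1.01 ± 0.14) and the retinoblastoma gene Rb1 (1.38 ± 0.12) rose, and Cdkn2b (-1.27 ± 0.29) and Cdkn2a (-0.69 ± 0.20) fell. Ccna2 averaged 6.86 at TN day 6. Of 20 p53 target and apoptosis genes 13 fell and 2 rose, including Tnfrsf10b (-1.67 ± 0.30), Pmaip1 (-1.28 ± 0.17) and Mdm2 (-0.96 ± 0.12).

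Genes of folate, glycine and serine metabolism, which feeds nucleotide synthesis and methylation in ES cells, were lower in NP cells in 14 of 19 cases and higher in none (median -0.80). Cth, which makes cysteine from cystathionine, read 6.93 and 6.82 in NP cells, against 10.58 and 10.53 in ES cells (-3.69 ± 0.30). Gldc, of the glycine cleavage system, read 9.25 and 9.09, against 10.84 and 10.73 in ES cells (-1.62 ± 0.24), and Mthfd2 (-1.41 ± 0.23) and Mthfd1 (-1.23 ± 0.18) fell with it, while Phgdh did not pass (-0.11 ± 0.15, adjusted p = 0.565). Of 21 glycolysis genes 9 rose and 4 fell. Lactate dehydrogenase Ldha read 12.33 and 12.28 in NP cells, against 12.26 and 12.18 in ES cells (0.08 ± 0.21, adjusted p = 0.776) and averaged 9.25 at TN day 2. The glucose transporter Slc2a3 fell (-1.31 ± 0.20). Cholesterol synthesis genes rose in 2 of 17 cases and fell in none. Imprinted genes, expressed from 1 parental copy, rose in 13 of 30 cases and fell in 8. Zim1 read 9.64 and 9.33 in NP cells, against 6.00 and 6.12 in ES cells (3.43 ± 0.53), and Plagl1, a zinc finger regulator of other imprinted genes, read 10.82 and 10.999, against 8.31 and 8.35 in ES cells (2.58 ± 0.40). Dlk1 (2.51 ± 0.38) and Ndn (1.60 ± 0.23) rose too, while Phlda2 read 8.47 and 8.44 in NP cells, against 11.77 and 11.83 in ES cells (-3.34 ± 0.18).

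**Figure D4:**
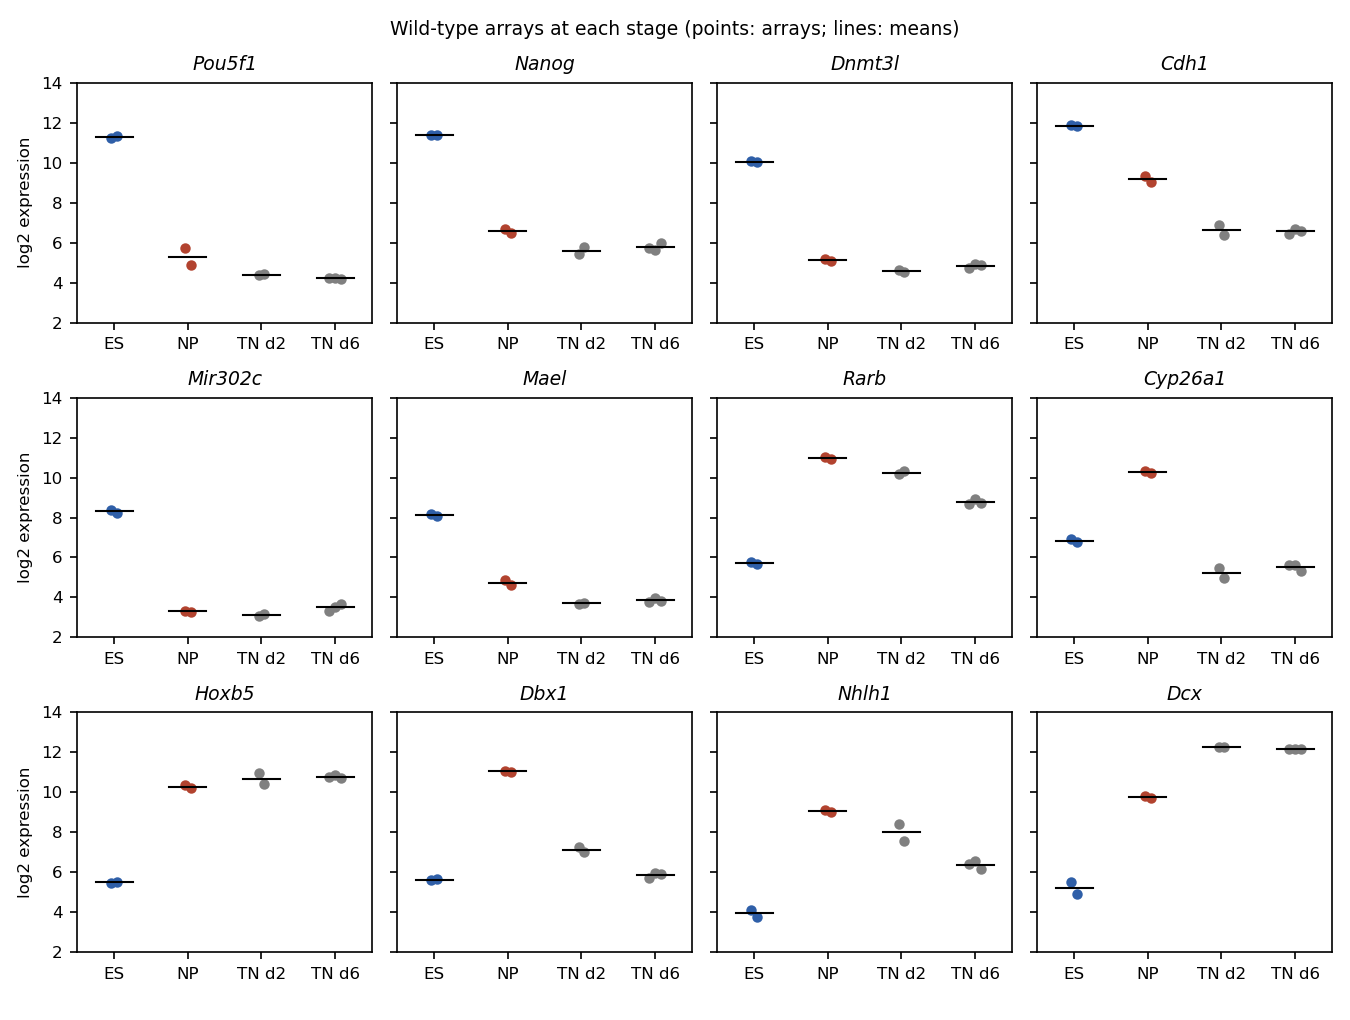
Log2 intensity of 12 genes in each wild-type array at the ES, NP, TN day 2 and TN day 6 stages, with a short line at each stage mean. Pou5f1, Nanog, Dnmt3l and Mir302c stayed low after the NP stage, Hoxb5 stayed high, Cyp26a1 was high at the NP stage alone among these 4 stages, and Dcx averaged 12.28 at TN day 2.

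Markers of other cell types were measured in the same arrays. Endoderm and primitive endoderm markers rose in 14 of 21 cases and fell in 2 (median 0.72), and the sum of their linear intensities was 5268 and 4641 in NP cells, against 2201 and 2108 in ES cells. Gata6, of primitive endoderm, read 10.19 and 9.97 in NP cells, against 7.30 in both ES arrays (2.78 ± 0.49), and Gata4 read 8.93 and 9.01, against 6.73 and 6.91 in ES cells (2.15 ± 0.36). Foxf1, of lateral mesoderm, read 10.01 and 9.72 in NP cells, against 7.12 and 6.92 in ES cells (2.85 ± 0.45). These markers thus rose beside the neural ones. Mesoderm markers rose in 7 of 20 cases and fell in 3, with sums of 3745 and 3514 in NP cells, against 1951 and 1831 in ES cells. Of 17 endothelial and blood markers 5 rose and 3 fell, with sums of 1883 and 1673 in NP cells, against 2204 and 2195 in ES cells. The endothelial sialomucin Emcn read 7.49 and 7.34 in NP cells, against 3.98 and 3.84 in ES cells (3.501 ± 0.41), but Pecam1 and Eng (-2.17 ± 0.19) fell. Neural crest markers rose in 4 of 14 cases and fell in 5, with sums of 1935 and 1900 in NP cells, against 2439 and 2403 in ES cells. Tfap2b read 8.41 and 8.21 in NP cells, against 4.75 and 4.69 in ES cells (3.59 ± 0.20), while Sox10, which defines migrating crest, did not pass (0.17 ± 0.12, adjusted p = 0.237).

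Glial and immune markers gave no uniform rise. Astrocyte markers summed to 5830 and 5310 in NP cells, against 4253 and 4077 in ES cells, with 5 of 13 higher and 3 lower. Gfap, which defines astrocytes, read 4.92 and 5.21 in NP cells, against 4.73 and 4.96 in ES cells (0.22 ± 0.18, adjusted p = 0.346). Oligodendrocyte lineage markers summed to 2491 and 2251 in NP cells, against 4052 and 3921 in ES cells (4 of 12 higher, 3 lower). That list includes the BMP ligand Bmp4, which was high in ES cells and fell, as given above. The lower sum is therefore not read as a loss of oligodendrocyte lineage cells. Microglia markers summed to 620 and 718 in NP cells, against 1122 and 1039 in ES cells (1 of 13 lower, Cd68). Trophoblast markers summed to 6269 and 6425 in NP cells, against 7372 and 7111 in ES cells (2 of 15 higher, 2 lower). Mesenchyme and feeder fibroblast markers stood out on the ES side, with sums of 2921 and 2818 in NP cells, against 11559 and 11228 in ES cells, and 8 of 19 lower and none higher. Tagln, a smooth muscle and fibroblast protein, read 6.39 and 6.50 in NP cells, against 11.06 and 10.84 in ES cells (-4.51 ± 0.46), and Acta2 (-3.14 ± 0.60), Thy1 (-2.99 ± 0.37) and Lox (-3.42 ± 0.59) fell as well. ES cells can be grown on feeder fibroblasts, and the labels do not say whether these were. The part of any of these cell types in the differences given above, the falls of matrix genes and Tnc among them, was not tested.

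The knockout arrays offer the same step without Top2β. Top2b itself, the gene targeted, read 6.89 and 6.77 in knockout NP cells, against 7.11 and 5.79 in knockout ES cells, and 9.17 and 9.10 in wild-type NP cells, against 7.96 and 7.52 in wild-type ES cells. Top2b was lower in each of these knockout arrays than in each of the wild-type arrays, and in wild type it was higher at the NP than at the ES stage (1.40 ± 0.24, adjusted p = 5.52e-05), with means of 11.38 at TN day 2 and 11.22 at TN day 6. Where the probe set lies relative to the deleted part is not known from the files. Its paralogue Top2a did not pass in wild type (0.15 ± 0.21, adjusted p = 0.609), and the mean over all its probe sets fell (-0.57, adjusted p = 0.0133). The knockout ES array of replicate 1 stood apart: its correlation with replicate 2 was 0.967, and its correlation with the NP arrays was 0.939 to 0.946, above the 0.922 to 0.929 of the other ES arrays. In the knockout 7383 genes changed (37.0%), 3256 upward (16.3%) and 4127 downward (20.7%). A fit to the knockout ES and NP arrays alone called 1422, and leaving out the array that stood apart gave 7966.

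Most changes called in wild type were called in the knockout too, with a larger share among those of at least 2-fold. Of all 4329 genes that rose in wild type, 2792 rose in the knockout, 3 fell and 1534 did not pass. Of all 4893 that fell, 3503 fell, 5 rose and 1385 did not pass. The median steps of these genes were 0.50 and -0.54 in the knockout, against 0.66 and -0.71 in wild type, whose values chose them. Of the 1205 genes that rose at least 2-fold in wild type, 1125 rose in the knockout, none fell and 80 did not pass. Of the 1481 that fell at least 2-fold, 1419 fell, 1 rose and 61 did not pass. In the knockout, pluripotency factors fell in 26 of 29 cases (27 without the ES array that stood apart), radial glia genes rose in 24 of 29 (24 without it), retinoic acid genes in 15 of 24 (16) and Hox genes in 22 of 37 (23). Hox genes also fell in 11 cases in the knockout, and in 3 without that array, against 3 in wild type. Hoxc10 read 4.89 and 4.97 in knockout NP cells, against 7.20 and 5.10 in knockout ES cells, and Hoxd11 read 5.52 and 5.32, against 7.26 and 5.63. Both were high in 1 of the 2 knockout ES arrays. Endoderm markers rose in 5 of 21 cases in the knockout, and in 11 without that array, against 14 in wild type, and the difference between the steps was called for none of the 21.

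The test of the difference itself, the knockout step minus the wild-type step, called 51 genes (0.256%), 32 of them positive and 19 negative. Tm4sf5, a tetraspanin-like membrane protein, read 8.09 and 8.15 in knockout NP cells, against 6.999 and 7.90 in knockout ES cells, and 7.01 and 6.91 in wild-type NP cells, against 8.26 and 8.29 in wild-type ES cells (1.99 ± 0.28, adjusted p = 0.00253). Psors1c2 fell less in the knockout, with 4.77 and 4.69 in knockout NP cells, against 5.96 and 6.07 in knockout ES cells, and 4.38 and 4.78 in wild-type NP cells, against 7.65 and 7.73 in wild-type ES cells (1.82 ± 0.20, adjusted p = 0.000157). Both differences lay partly in the ES arrays, which were lower in the knockout. Gad2, the GABA-synthesising enzyme of inhibitory neurons, read 5.80 and 5.87 in knockout NP cells, against 5.85 and 5.39 in knockout ES cells, and 6.49 and 6.29 in wild-type NP cells, against 4.81 and 4.96 in wild-type ES cells (-1.28 ± 0.19, adjusted p = 0.0027). The Gad2 difference lay partly in the ES arrays too, which were higher in the knockout. Among genes of the lists that lead the wild-type step, Zbtb16 rose less in the knockout (-1.24 ± 0.24, adjusted p = 0.0182), Mir302c fell less (1.13 ± 0.18, adjusted p = 0.00504) and, among the 15 largest rises, Unc5a rose less (-1.02 ± 0.16, adjusted p = 0.00402). These calls depended on the fit. With limma on the 8 ES and NP arrays alone, or with array weights, none was called (880 and 847 genes at an unadjusted p under 0.05, against 2015). Of the 51, 14 were called whichever single array was left out. The count was 17 without wild-type ES replicate 1, 137 without the knockout ES array that stood apart and 3172 without its partner.

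**Figure D5:**
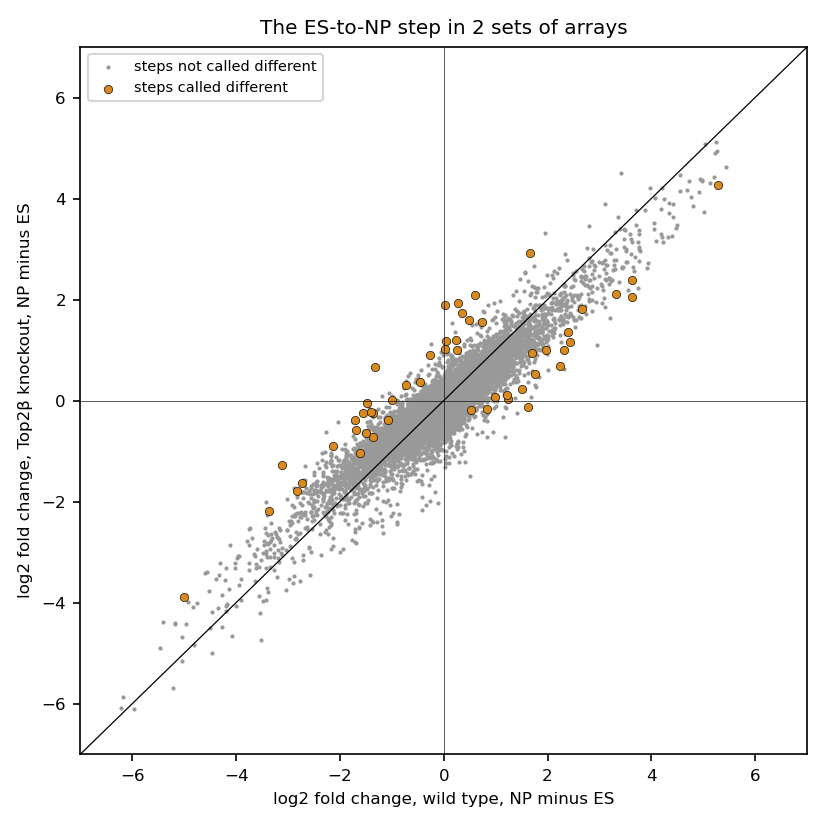
Step from ES to NP cells in wild type (log2, horizontal axis) and in Top2β knockout (log2, vertical axis) for 19938 genes, with the 51 genes whose steps differ by the test in orange. Most genes with a large step lie near the diagonal.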

How the data were processed

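Total RNA had been labelled with biotin and hybridised to Affymetrix whole-transcript arrays, per the labels. The authors deposited 1 table of log2 values for 35556 probe sets over 28 arrays, for which the submitters' processing notes name the package oligo 1.14.0. The base of the logarithm is not stated and was read as 2 from the range of the values (1.963 to 13.99), and the background correction and summarization are not stated in the labels or notes. Probe sets were named from the platform annotation: 21789 had 1 gene symbol, 1621 had several and 12146 had none, and only the first kind was used. For the 999 genes with several probe sets the one with the highest mean was kept, which left 19938 genes.

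A linear model with 1 mean per group (12 groups) was fitted in R 4.3.3 with limma 3.58.1, using every array (lmFit and eBayes, 16 residual degrees of freedom, median standard error 0.144), since groups of 2 arrays give little information on the spread by themselves. The contrasts were NP minus ES cells in wild type, the same in knockout, and the knockout step minus the wild-type step. P-values were adjusted over all 19938 genes. Tables were handled with Python 3.11.15 and pandas 2.3.3. The steps were tested on simulated data with known changes. The number of arrays limits the precision.

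The members and the 49 gene lists (1061 symbols, 982 measured) were chosen with earlier results of these data known. Genes named are the 15 largest rises and 15 largest falls among called genes whose arrays did not overlap. In each list they are up to 8 called members in each direction by size, up to 4 members that were not called by mean level, and every member of a list of 12 or fewer. Every Hox, SoxB1, retinoic acid and miRNA precursor gene measured, up to 8 differences between the steps in each direction, Top2b, and the markers of ES, NP and neuronal cells complete the rule. List counts are read against the share of all genes called. Promoter windows and miRNA sequences came from RefSeq (GRCm38.p6). Promoter composition and gene span over all changed genes are not given, and motif shares over all genes are not interpreted, since fewer than 80% of the genes had a promoter entry and the files name no build.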

Additional observations from a re-analysis of the deposited data

Results flagged for a closer look

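In 23 named genes the step from ES to NP cells differed between knockout and wild type by the interaction term of the limma model (adjusted p under 0.05, 2 arrays in each of the 4 groups). Values are the knockout step minus the wild-type step on the log2 scale with the standard error. They rest partly on the knockout ES array that stood apart, and its part in them was not tested. Without it a single array remains in its group, which cannot settle that part. Most of the 51 differences called lost their call when some single array was left out, as given above. With array weights, or with limma on the ES and NP arrays alone, no difference was called. The 23 genes are therefore not read as established differences between the genotypes.

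In 11 genes the knockout step was the lower. The neuronal and synaptic genes Gad2 (-1.28 ± 0.19), Nrxn3 (-1.27 ± 0.23), Syndig1 (-1.23 ± 0.25) and the neuronal enolase Eno2 (-1.10 ± 0.17) rose less in the knockout than in wild type. For Eno2 the arrays read 7.74 and 7.75 in knockout NP cells, against 7.80 and 7.47 in knockout ES cells, and 8.43 and 8.17 in wild-type NP cells, against 7.15 and 7.02 in wild-type ES cells. The differences of Eno2 and Gad2 thus lay partly in the ES arrays, which were higher in the knockout. The netrin receptor Unc5a differed by -1.02 ± 0.16, the zinc finger repressor Zbtb16 by -1.24 ± 0.24 and Scube2, which helps release Hedgehog ligand, by -1.32 ± 0.19. The parathyroid hormone receptor Pth1r differed by -1.58 ± 0.28, with a step of 2.05 in the knockout and 3.64 in wild type. Cyp2d22 differed by -1.55 ± 0.21, Adssl1, an enzyme of purine metabolism, by -1.75 ± 0.32 and the mesoderm factor Tbx6 by -0.73 ± 0.13.

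In 12 genes the knockout step was the higher. Stk26 differed by 1.66 ± 0.26, Adgrg2 by 1.88 ± 0.34 and the ligand Wnt4 by 1.13 ± 0.18, and in each the wild-type step lay between 0.02 and 0.27. For Adgrg2 the arrays read 7.31 and 7.45 in knockout NP cells, against 5.64 and 5.33 in knockout ES cells, and 5.53 and 5.45 in wild-type NP cells, against 5.37 and 5.57 in wild-type ES cells. The endothelial and blood markers Cd34 and Esam differed by 1.37 ± 0.25 and 1.005 ± 0.19, and the trophoblast gene Tpbpa by 1.49 ± 0.28. The cadherin Cdh10 differed by 1.05 ± 0.20 and the tetraspanin relative Tm4sf5 by 1.99 ± 0.28. Psors1c2 (1.82 ± 0.20), Mir302c (1.13 ± 0.18), Bnc2 (1.31 ± 0.26) and the small nucleolar RNA gene Snord118 (1.43 ± 0.24) fell in wild type and fell less, or did not pass, in the knockout.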

How the results depend on the processing

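The wild-type count of 9222 genes lay between 7011 (without ES wild-type replicate 1) and 9518 under the 13 alternatives run, other than the fit to the 8 ES and NP arrays, which called 6515. Quantile normalization (5136 higher, 4382 lower) and median centring (4952 higher, 4412 lower) turned the majority from lower to higher. Of 483 named genes called, 396 kept their call and direction under each of the 13 alternatives in which they were tested. The other 87 lost their call in at least 1, most often in the fit to 8 arrays (57). The alternative with a filter on low values tested only 14953 genes, and a gene it removed was not counted as lost. Of the named genes that did not pass, 56 were called in the same direction under at least 1 alternative, so a gene that did not pass is not thereby shown to be unchanged. The 1 named gene that turned was Top2a, at -0.57 with the mean of its probe sets (adjusted p = 0.0133 by limma). The sign of the median turned under some alternative for 5 of 49 lists (topoisomerase, trophoblast, neural crest, oligodendrocyte and miRNA precursor genes). In the knockout, 1422 genes were called with only the arrays compared, 4328 with 8 arrays and 3522 with array weights, against 7383. For the difference of the steps the count was 0 with the 8 arrays and 0 with array weights, 87 with a trended and robust prior, and 17 to 3172 with 1 array left out, against 51. With the replicate number as a block, the counts were 9518 in wild type, 7784 in the knockout and 103 for the difference. The numbers are not known to pair the arrays: the deviations of same-numbered arrays correlated at 0.320 in wild type and -0.0784 in the knockout, with 2 pairs each. The cause of these shifts was not tested.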

Other observations

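Genes that changed at least 2-fold in wild type included runs of neighbours that moved in 1 direction. These runs, of 4 or more genes next to each other among those measured, were looked for after the values were seen and carry no test. The longest held 8 genes each: Hoxb1 to Hoxb7 with Hoxb9 on chromosome 11, higher in NP cells by 1.99 to 4.80, and the protocadherins Pcdhb15 to Pcdhb22 on chromosome 18, cell surface proteins of neurons, higher by 1.38 to 2.64. The protocadherins are close copies, so their probes may read more than 1 gene. On chromosome 6, Nanog lay in a run of 6 genes that were all lower, with Gdf3, Dppa3, Slc2a3, Apobec1 and Mfap5 (-4.81 to -1.31). Another run of 6 lower genes, on chromosome 4, was made of zinc finger genes, among them Zfp979, Zfp980 and Zfp600 (-5.42 to -2.17), again with near-identical copies. On chromosome 1, Lefty1 and Lefty2 were neighbours of Tmem63a and Ephx1, which were lower too (-5.47 to -1.02 over the 4 genes). On chromosome 16, 4 neighbours were lower, Parp9, Dtx3l and Parp14, known as interferon-responsive genes, and Hspbap1 (-2.23 to -1.52).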
